A study of Mus musculus with 6 samples.

Results

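The ventral prostate of 15 month old wild type mice was compared with that of 2.5 month old wild type mice on 2 of the 6 arrays of a study of mice that carry transgenes of 15-LOX2, the enzyme 15-lipoxygenase 2. Both arrays were 2-colour Agilent whole mouse genome arrays, with RNA of the 15 month old mice in the red channel (Cy5) and RNA of the 2.5 month old mice in the green channel (Cy3). Of 41174 probes, 1842 (4.47%) were well above background in both channels on both arrays with no spot marked as an outlier, and these carry the comparison. They stood for 1532 named genes, through 1626 probes with a gene symbol. The other 4 arrays carried, in red, 2.5 month old fl26 mice (2 arrays, transgenic for full-length 15-LOX2) and 2.5 month old svb9 mice (2 arrays, transgenic for its splice variant b). All 6 arrays had 2.5 month old wild type ventral prostate in green, so each ratio below is a red group over young wild type. All mice were FVB, each extract was a pool (3 mice by the sample labels, 6 by the series design), and the duplicates are stated to be independent sets of samples. Whether the green extract was shared between arrays is not stated, and the promoter of the transgenes is not given in the sources used here.

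The ventral prostate is one of the paired lobes of the rodent prostate. Its ducts are lined by tall luminal cells that secrete proteins and polyamines into the lumen under the control of androgen and its receptor, above a sparse layer of basal cells and a sheath of smooth muscle and fibroblasts. With age the rodent prostate is known to change in its secretion, its stroma and its content of immune cells. Retinoids, which luminal epithelium takes up as retinol carried by retinol-binding protein, are needed to keep this epithelium differentiated.

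Among the 778 best measured genes, those whose young green signal exceeded 1024 units above background, 28 were higher and 2 lower in old prostate when p-values were adjusted over all 1842 probes. Most of the other calls in that set were of dim probes whose direction the selection sets, and with the bright probes tested alone 9 of the 30 genes passed, all higher: Stra6, Ddx42, Wdr81, Camsap2, Exosc1, Srrm3, Caln1, Cyp2f2 and Sf3b2. Among these 9, the probes of Wdr81, Camsap2, Exosc1 and Srrm3 were named only through a synonym of the gene. Further probes of Ddx42, Camsap2, Exosc1 and Srrm3, all dim in red on the first old array, averaged between -0.30 and 0.10. Stra6, the membrane receptor that takes up retinol from its plasma carrier, was 3.14-fold higher and was the gene that also differed from the transgenic arrays. The 21 genes that passed only with the wider adjustment include the luminal factor Foxa1, the keratin Krt7, Odc1, the first enzyme of polyamine synthesis, and both lower genes, Ctsb, a lysosomal cysteine protease, and Wbp1, which encodes a protein that binds WW domains. The promoters of Stra6, Foxa1 and Cyp2f2 are shown because these 3 genes have a known place in retinol uptake, luminal identity and airway-type epithelium. They come from RefSeq (GRCm38.p6) and run 5′ to 3′ on the gene's strand across the start site. Capitals mark a match, on either strand, to TGTTTAC, the core bound by forkhead factors, or to AGGTCA, the core half-site of nuclear receptors such as the retinoic acid receptors.
Stra6, chr9:58128838-58129137, plus strand, the first of 4 annotated starts: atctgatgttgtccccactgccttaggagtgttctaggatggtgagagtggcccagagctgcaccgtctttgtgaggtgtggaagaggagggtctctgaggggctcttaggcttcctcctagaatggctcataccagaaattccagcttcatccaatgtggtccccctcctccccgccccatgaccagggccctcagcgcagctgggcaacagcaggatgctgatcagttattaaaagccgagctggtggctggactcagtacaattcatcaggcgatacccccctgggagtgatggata
Foxa1, chr12:57546062-57546361, minus strand: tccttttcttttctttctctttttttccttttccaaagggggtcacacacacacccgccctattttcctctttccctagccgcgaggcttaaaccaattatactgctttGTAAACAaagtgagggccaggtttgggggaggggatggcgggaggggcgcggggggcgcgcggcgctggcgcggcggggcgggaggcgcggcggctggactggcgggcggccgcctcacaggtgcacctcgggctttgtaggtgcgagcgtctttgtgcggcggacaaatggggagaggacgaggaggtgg
Cyp2f2, chr7:27119705-27120004, plus strand: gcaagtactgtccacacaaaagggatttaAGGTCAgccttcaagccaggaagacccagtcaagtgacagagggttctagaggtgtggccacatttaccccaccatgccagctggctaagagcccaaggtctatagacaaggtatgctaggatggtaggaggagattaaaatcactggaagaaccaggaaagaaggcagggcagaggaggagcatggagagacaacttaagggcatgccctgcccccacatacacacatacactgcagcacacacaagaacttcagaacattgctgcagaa
The Stra6 window held neither motif, the Foxa1 window held 1 TGTTTAC match read on the opposite strand, and the Cyp2f2 window held 1 AGGTCA match. Of the 30 genes, 28 had a promoter in the table, and of these 3 (10.7%) had a TGTTTAC match in any of their promoters, against 4.05% of 27025 genes, and 7 (25%) had an AGGTCA match, against 18.1%. Matches to such short cores are a description of these letters only.

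The red signal limited what could be measured. In the median bright probe the red signal was 54.4 units above background on the first old array and 529 units on the second, against 725 to 5216 units on the 4 transgenic arrays. The green signal of the young prostate was 1515 and 1779 units on the old arrays, within the range of 1514 to 1895 units on the others. Only 3218 probes were well above background in red on the first old array and 13597 on the second, while 24509 were so in green on both. Through the background offset, the lowest log2 ratio that a median bright probe could take was -1.01 on the first old array and -3.64 on the second, so falls were compressed on the first. Spots marked as outliers were most frequent on the old arrays too (520 and 1473 spots, against 29 to 196 on the others), and they removed 1362 probes from the set.

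A probe therefore entered the set of 1842 in a way that depended on its young level. Of the probes whose young green signal was under 32 units, 0.0214% entered, and of those between 512 and 1024 units, 43.8% entered. Above 2048 units at least 99.6% entered. All members whose young signal was under 256 units were higher in old than in young prostate, since a probe that dim in green cleared the background in the weak red channel only when its ratio was high. Over all 1842 probes, limma (6 arrays, Benjamini-Hochberg adjusted p under 0.05) called 193 (10.5%), of which 190 (10.3%) were higher and 3 (0.163%) were lower. That imbalance carries the selection and is not read as a direction of change. In a fit of all 26149 probes that were bright in either channel on both arrays of any group limma called 0, with 3012 at an unadjusted p under 0.05. Of the 193, 153 had a young signal of 1024 units or less and all 153 were higher. Probes at least 2-fold higher on both old arrays numbered 32 (1.74%) and probes at least 2-fold lower on both numbered 0, where limma called 3 lower probes.

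**Figure D1:**
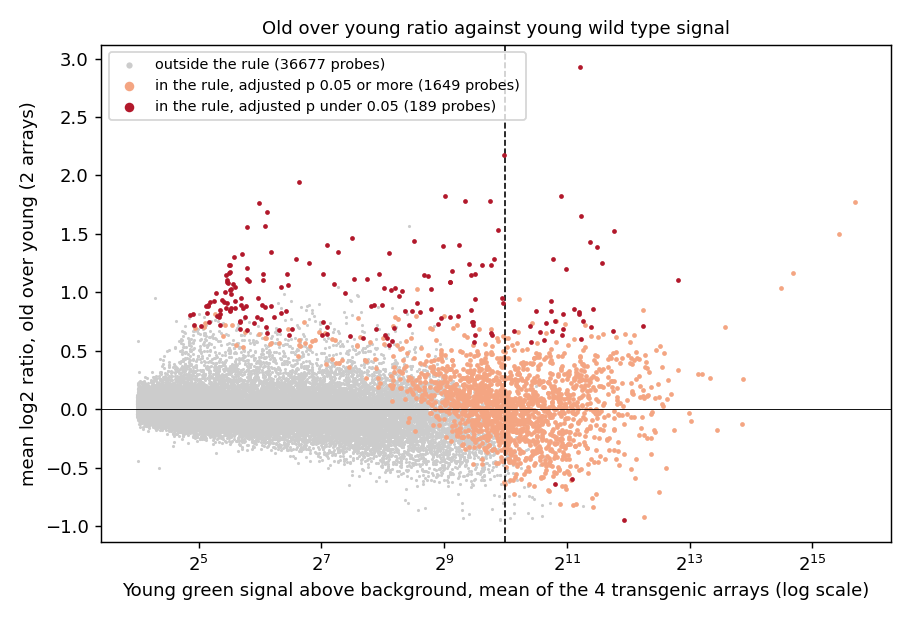
Mean log2 ratio of old over young wild type prostate on the 2 arrays (vertical axis) against the young green signal above background on a log scale (horizontal axis), with one point per probe, leaving out probes saturated on both old arrays. Grey points are probes outside the set of 1842 (the rule), light points are members that did not pass the test and dark points are members that did. The dashed line is at 1024 units: to its left the members lean above 0, all of them below 256 units, and to its right they lie on both sides of 0.

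Above 1024 units the set was nearly complete, with 923 of 969 measured probes in it, and 919 of the 923 were not saturated on both old arrays. In these 919 bright probes 50.05% of mean ratios were above 0 and the median log2 ratio was 0.00. Of them 36 (3.92%) passed, 33 higher and 3 lower, and 161 had an unadjusted p under 0.05. On both old arrays 6 (0.653%) were at least 2-fold higher. Counted once per gene by the probe of highest mean intensity, 30 of 778 genes (3.86%) passed, 28 higher and 2 lower, while 49.74% of the 778 genes had a mean ratio above 0. Tested alone, the bright set gave 10 probes, 10 higher and 0 lower, and 9 of the 30 genes. With the replicate number as a block 155 bright probes passed, 79 higher and 76 lower, and with outlier spots kept 7 of the 30 genes passed. Log2 ratios of the 2 old arrays correlated across the 919 probes with r = 0.45, and their signs matched for 58.3%. Probes share each array's labelling and normalization, so they are not independent replicates. With each array centred on its median in place of loess, the median bright probe lay at -3.54 and -1.48 on the old arrays and all 28 higher genes turned negative, so directions here are relative to the loess curve. Of the 36 probe calls, 0 were left without the first old array, and without the second 14 bright probes passed. No dye swap was made, so age and dye cannot be told apart in a ratio to young prostate. Old and transgenic prostate were both labelled red, though red signal was weaker on the old arrays. In these pooled tissue extracts, more cells of a type and more RNA per cell cannot be told apart.

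**Figure D2:**
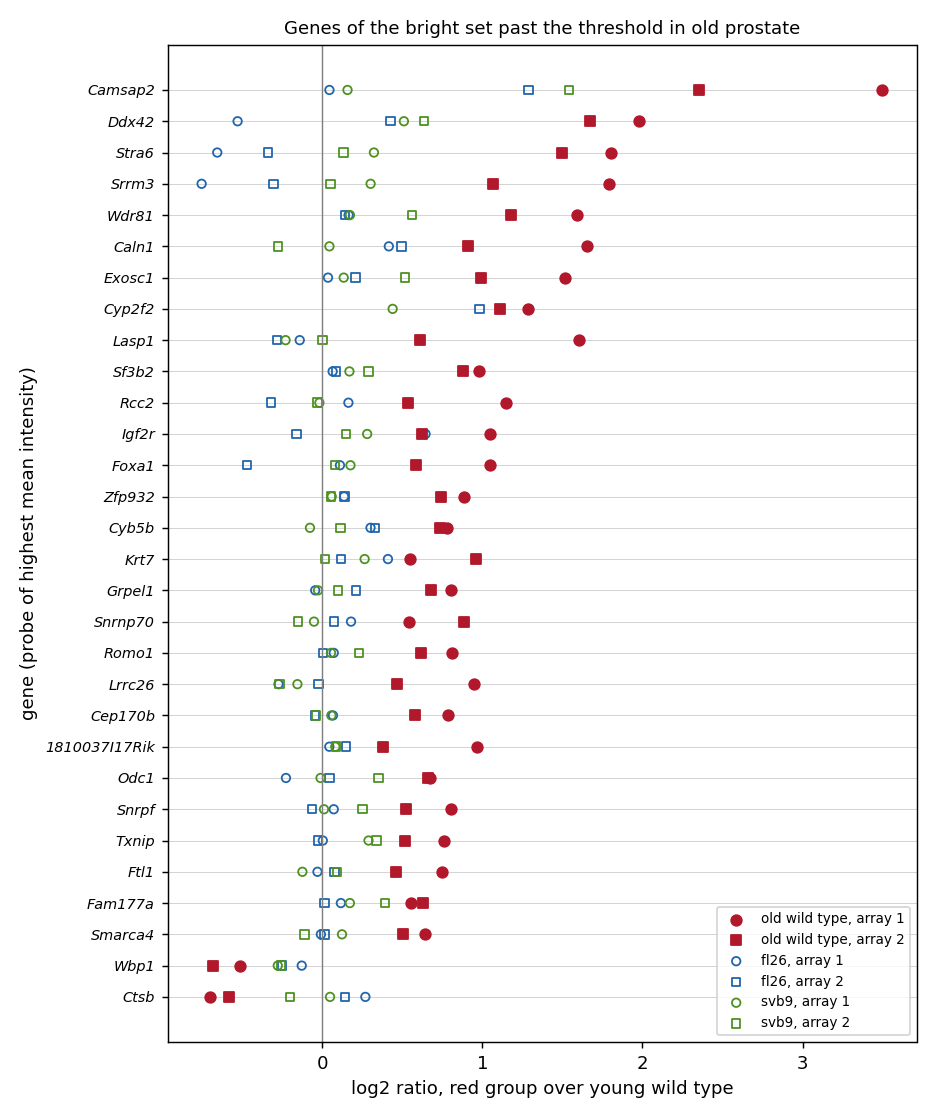
Log2 ratio to young wild type prostate (horizontal axis) of each of the 30 genes that passed among the bright probes (rows), with one marker per array: filled red for old prostate, open blue for fl26 and open green for svb9, circles for array 1 and squares for array 2. Stra6 stands at 1.81 and 1.5 on the old arrays and between -0.66 and 0.32 on the transgenic arrays, while Camsap2 is also above 1 on the second array of fl26 and of svb9.

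The retinol receptor Stra6 had the lowest adjusted p of the set. It had log2 ratios of 1.81 and 1.5 on the old arrays, against -0.66 and -0.34 in fl26 and 0.32 and 0.13 in svb9. Its red and green signals were 170 and 1274 units on the first old array, and 2676 and 3314 units on the second. The old values lay above all 4 transgenic values with no overlap. Here and below the genes were chosen by their old ratios, so such a separation is a description only. The mean in old prostate was 1.65 ± 0.17 (SE, n = 2 arrays, adjusted p = 0.00535). Adh1, an alcohol dehydrogenase that can oxidise retinol, was the other bright retinoid gene and did not pass, at 0.51 and 0.12 (adjusted p = 0.283). So 1 of the 2 bright genes of the retinoid uptake and metabolism list passed, beside 3.86% of all bright genes, and 3 of the 20 listed genes were in the set of 1842.

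Epithelial genes followed. Foxa1, the pioneer transcription factor that opens chromatin for the androgen receptor in luminal cells, had log2 ratios of 1.05 and 0.58 in old prostate, against 0.11 and -0.47 in fl26 and 0.18 and 0.08 in svb9. Both old values were higher than every transgenic value, and the mean was 0.82 ± 0.19 (SE, adjusted p = 0.0387, and 0.117 with the bright set tested alone). It was the 1 gene that passed of 4 bright luminal genes, 3 of which had ratios above 0, with a list median of 0.34 against 0.00 over the 778 genes. Krt7, a keratin of simple and ductal epithelia, had 0.55 and 0.96 in old prostate, against 0.41 and 0.12 in fl26 and 0.26 and 0.02 in svb9. Its mean was 0.76 (adjusted p = 0.0377, and 0.117 with the bright set alone), and its second probe, dim in red on the first old array, gave -0.05 and 0.84. Cyp2f2, a cytochrome P450 best known from the club cells of the airway, had 1.28 and 1.11 in old prostate, against 1.29 and 0.98 in fl26 and 0.44 on the single svb9 array with a value. The mean was 1.20 ± 0.17 (SE, adjusted p = 0.0130), but here the old values overlapped those of fl26. Krt7 and Cyp2f2 were the 2 bright genes of the 13 on the progenitor-like epithelium list, and both passed, beside 3.86% of all bright genes. Of these Cyp2f2 was as high in fl26.

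Of the androgen-regulated and secretory genes few could be measured. Odc1, ornithine decarboxylase, had 0.67 and 0.66 in old prostate, against -0.23 and 0.04 in fl26 and -0.01 and 0.35 in svb9. The mean was 0.67 (adjusted p = 0.0405, and 0.120 with the bright set alone) with no overlap, and a second Odc1 probe that was dim in red on the first old array gave 0.00 and 0.33. Of the 3 bright androgen regulated genes Odc1 was the 1 that passed, beside 3.86% of all bright genes, and the list median was 0.03. Sbp and Spink1, abundant secreted products of the ventral lobe, were saturated in green on both old arrays and in red on the second, so no fold is given. Rnase1 and Cdcp3, the other ventral secretory genes that were bright, had mean ratios of -0.27 and -0.46 (adjusted p = 0.627 and 0.374). One probe that carries the name of the phosphatase Ptprz1 was saturated in the same way. Msmb, Pbsn, Krt8 and Krt18, which mark secretory luminal cells, were bright but lost to outlier marks. With those spots kept, Pbsn gave 1.54 and 0.09, Msmb 0.80 and -0.20, Krt18 1.94 and 0.30 (0.75 on the second array with marked spots left out of the normalization), and the 2 Krt8 probes lay between -0.02 and 0.07, so the 2 arrays did not match for the first 3. Clusterin (Clu), a chaperone of stressed and regressing prostate, gave 0.86 and 1.28 with its marked spots kept, against 1.52 and 2.61 in fl26 and 0.99 and 0.06 in svb9, so old prostate lay within the transgenic range.

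Several genes that passed encode proteins that handle RNA. Ddx42, a DEAD box helicase that associates with the SF3b complex, had 1.98 and 1.67 in old prostate, against -0.53 and 0.43 in fl26 and 0.51 and 0.64 in svb9 (mean 1.83 ± 0.23, SE, adjusted p = 0.00677). Srrm3, a splicing factor known for neuronal microexons, had 1.79 and 1.07 in old prostate, above a highest transgenic value of 0.30. Sf3b2, a subunit of the U2 particle, had 0.98 and 0.88 in old prostate, against 0.06 and 0.08 in fl26 and 0.17 and 0.29 in svb9 (mean 0.93 ± 0.15, SE, adjusted p = 0.0142). In all 3 genes the old arrays stood above every transgenic array, a description only since the genes were chosen by their old ratios. Snrnp70, a protein of the U1 particle, had 0.54 and 0.88, and Snrpf, a member of the Sm ring, had 0.80 and 0.52 (adjusted p = 0.111 and 0.117 with the bright set alone). Exosc1, a part of the RNA exosome, had 1.52 and 0.99. Of the 14 bright genes of the pre-mRNA splicing list, Sf3b2, Snrnp70 and Snrpf passed, beside 3.86% of all bright genes, 8 had ratios above 0 and the list median was 0.06, so the list as a whole lay near the median of all bright genes. Ddx42, Srrm3 and Exosc1 were not on it.

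Other probes of these genes did not repeat the rise. The second Ddx42 probe averaged -0.30, the 3 further Srrm3 probes averaged between -0.11 and 0.10, the 3 further Exosc1 probes averaged between -0.05 and 0.04, and the second probes of Snrnp70 and Snrpf averaged -0.09 and -0.04. All of these were dim in red on the first old array. On the second, where the other probes of Ddx42, Exosc1, Snrnp70 and Snrpf were well above background in red, they gave -0.59 for Ddx42, -0.09 to 0.07 for Exosc1, 0.0012 for Snrnp70 and 0.29 for Snrpf, against 1.67, 0.99, 0.88 and 0.52 for the probes that passed. Stra6, Foxa1, Cyp2f2 and Sf3b2 had 1 probe each on the array.

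Genes of the cytoskeleton and of chromatin were also among the 30, though most of their further probes did not repeat the rise. Camsap2, which caps the minus ends of microtubules, had the highest mean of the 30 genes, 2.93 ± 0.40 (SE, adjusted p = 0.00967), with 3.50 and 2.35 in old prostate. The transgenic arrays split by array and not by line, with 0.05 and 1.29 in fl26 and 0.16 and 1.54 in svb9, and the high value of each line fell on the array with the weaker red signal. Its other 2 probes averaged 0.01 and -0.20. The part of red signal in the Camsap2 ratio was not tested. Lasp1, an actin-binding adaptor, had 1.60 and 0.61 (limma adjusted p = 0.0972 with the bright set alone), and its 4 further probes averaged between -0.16 and 0.36. Smarca4, the ATPase of the SWI/SNF remodelling complex, had 0.64 and 0.50 (limma adjusted p = 0.148 with the bright set alone). Its other 2 probes averaged -0.46 and -0.03. The former was above background in red on the second old array and gave -0.62 there. Rcc2, a regulator of chromosome condensation, had 1.15 and 0.53 (limma adjusted p = 0.117 with the bright set alone). Its second probe averaged -0.23, and gave -0.23 on the second old array, where it was above background in red. Caln1, a calcium-binding protein, had 1.66 and 0.91, and its second probe gave 1.22 and 1.26 (adjusted p = 0.00910), the one gene of the 30 with a second probe that passed. The young signal of that second probe was 678 units, in the range where the selection favours rises. Ftl1 was the only other gene of the 30 with a further probe in the set, so most further probes could not pass. Wdr81, a protein of endosome traffic, had 1.59 and 1.18 (adjusted p = 0.00677), and its second probe gave 0.13 and 0.67.

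**Figure D3:**
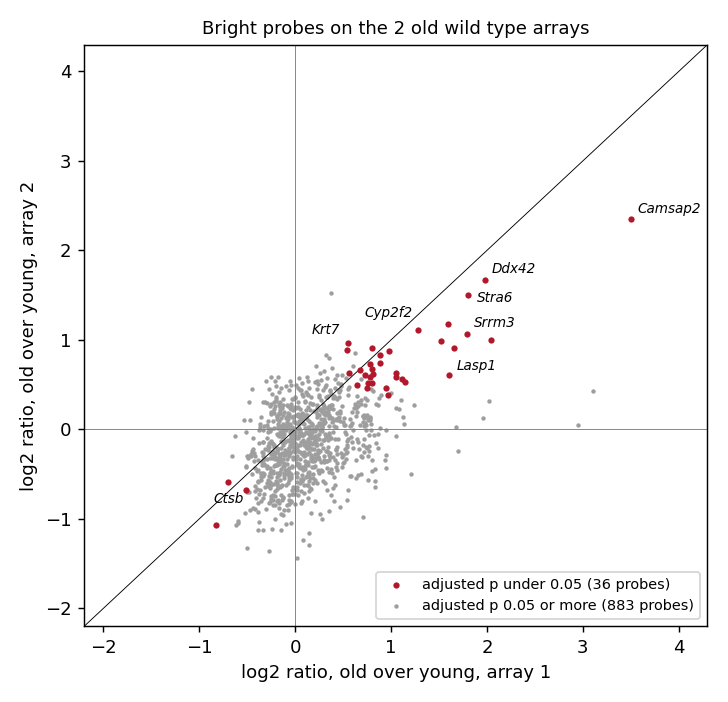
Log2 ratio of old over young wild type prostate on array 1 (horizontal axis) against array 2 (vertical axis) for the 919 bright probes that were not saturated, with the 36 that passed in dark red and equal ratios on the diagonal line. The labelled rises lie above 0 on both arrays and Ctsb lies below 0 on both, while a few probes are above 1.5 on array 1 and near 0 on array 2.

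Genes of the lysosome, of iron and redox balance and of mitochondria gave smaller differences. Ctsb had -0.70 and -0.58 in old prostate, against 0.27 and 0.14 in fl26 and 0.05 and -0.20 in svb9. Both old values were below all 4 transgenic values, the mean was -0.64 ± 0.15 (SE, adjusted p = 0.0387, and 0.117 with the bright set alone), and its second probe, dim in red on the first old array, averaged -0.13. Of the 6 bright genes of the autophagy and lysosome list Ctsb alone passed, beside 3.86% of all bright genes. In this list 5 had ratios below 0 and the median was -0.08. Igf2r, the receptor that delivers lysosomal enzymes and clears Igf2, had 1.05 and 0.63 in old prostate, against 0.65 and -0.16 in fl26 and 0.28 and 0.15 in svb9, so the first fl26 value lay between the 2 old ones. Ftl1, ferritin light chain, had 0.75 and 0.46 and passed, and its second probe in the set had 0.42 and 0.11 and did not (adjusted p = 0.388). Txnip, an inhibitor of thioredoxin, had 0.76 and 0.52. The mitochondrial proteins Grpel1, Romo1 and Cyb5b passed with means of 0.74, 0.71 and 0.76 (adjusted p = 0.0972 each with the bright set alone), and the 2 further Grpel1 probes averaged -0.09 and -0.02. Wbp1 had -0.51 and -0.68 in old prostate, against -0.13 and -0.25 in fl26 and -0.28 and -0.26 in svb9 (mean -0.60, adjusted p = 0.0410, and 0.124 with the bright set alone). Its red signal on the first old array was 28.7 units, also below the offset.

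The mitochondrial respiratory chain was measured most fully of the pathways, with 27 bright genes. None of the 27 passed in the limma fit, beside 3.86% of all bright genes. Of the 27, 13 had ratios above 0 and the list median was -0.01, beside 0.00 over all bright genes. Within it Cox7b, Cox7a2 and Cox5b, subunits of cytochrome oxidase, had mean ratios of -0.92, -0.84 and -0.66 (adjusted p = 0.0950, 0.102 and 0.0783). The 2 old arrays gave -0.51 and -1.33 for Cox7b. The second fl26 and svb9 arrays, which share the extraction dates of the old arrays, gave -0.98 and -0.85. They also gave -1.25 and -0.91 for Cox7a2, and -0.45 and -0.39 for Cox5b. Ndufv2, a complex I subunit, had 0.55 and 0.46 (adjusted p = 0.0792). None of 11 ribosomal protein genes, 11 translation factors, 12 genes of ER entry and folding, 11 proteasome genes or 5 MHC genes passed, with list medians of 0.08, -0.03, -0.23, -0.08 and 0.32. Sec61g, a channel subunit for ER entry, had 1.0 and 0.40 (adjusted p = 0.0718). H2-T23, a non-classical MHC class I gene, had 0.73 and 0.35 (adjusted p = 0.0813). H2-Q10, another class I gene, had 0.02 and -1.44 in old prostate, against -2.45 and -1.69 in fl26 and 0.10 and -0.77 in svb9. Further bright probes of H2-Q10 gave -0.27 and -1.36, and 0.22 and -0.15, on the old arrays, so its probes differed on the second.

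Old prostate was then set against transgenic prostate within one fit, in which both were labelled red over young wild type in green. Whether the green extract was shared is not stated. Red signal was weaker on both old arrays than on the transgenic ones, and its part in this contrast was not tested. Of 1842 probes 1 passed (0.0543%), that of Stra6, with a difference of 1.79 ± 0.20 (SE, adjusted p = 0.0289), and 276 had an unadjusted p under 0.05. Without the first fl26 array, the second svb9 array or the first old array 0 probes passed (244, 215 and 162 with an unadjusted p under 0.05). With extraction date as a term 34 probes passed, 33 of them higher, and with the replicate block 13 passed, and Stra6 was among them in both. The array headers give 3 extraction dates, and each old array shared its date with a transgenic one. Stra6 was 2.14 higher on the first old array than on the fl26 array of the same date and 1.37 higher on the second than on the svb9 array of its date. Over the bright probes those same-date differences had medians of 0.35 and 0.02, so values of the first pair are to be read against 0.35. Of the 28 higher genes, 27 had both same-date differences and all 27 were positive in both, and 26 were higher on both old arrays than on each of the 4 transgenic arrays. Both lower genes were below all 4. The 30 genes were chosen by these same old ratios, so these counts were largely fixed by that choice and are a description only. Apart from Stra6, the adjusted p values of the 30 genes for the difference ran up to 0.438. Foxa1 differed by 0.84 (adjusted p = 0.175), Sf3b2 by 0.78 (adjusted p = 0.175) and Cyp2f2 by 0.41 (adjusted p = 0.438).

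Among members of lower young signal, whose direction the selection sets, the higher genes are given as a description. Plxna1, a semaphorin receptor, had 1.62 and 2.03 in old prostate, against 1.11 and 1.54 in fl26 and 0.62 and 1.37 in svb9, and its second probe averaged -0.07. Sema6b, a semaphorin, had 1.75 and 0.94. Ang, a secreted ribonuclease, had 1.69 and 1.0 in old prostate, against 1.49 and 1.23 in fl26 and -0.42 and -0.14 in svb9. A second Ang probe, dim in red on both old arrays, gave 0.10 and 0.02 there. The Ang paralogue Ang4 had 0.89 and 1.23 in old prostate, against 1.52 and 1.31 in fl26 and -0.40 and -0.19 in svb9. For both angiogenins old prostate overlapped fl26 and lay above svb9, and near-identical paralogues may share probe signal. G3bp1, a stress granule protein, had 0.75 and 0.69, and its 2 further probes gave 0.14 and 0.01, and 0.05 and 0.30, with outlier spots kept in the normalization. Aldh8a1, an aldehyde dehydrogenase that acts on retinal, had 1.05 and 1.76, and the second svb9 array gave 1.66. Pbld2 had 2.21 and 1.17, Pik3c2g 0.79 and 2.00 and Arhgef10l 1.29 and 1.39, and further probes of each of these 3 genes lay between -0.32 and -0.07 on average.

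The second old array allowed a wider view without replication, since 99.1% of probes with a young green signal above 128 units were well above background in red on it. On this 1 array 6375 genes gave a median log2 ratio of -0.06, with 43.2% above 0, and the svb9 array of the same date gave -0.06. Stromal markers lay low: none of 13 smooth muscle genes was above 0 (median -0.28, against -0.01 on that svb9 array and -0.27 on the second fl26 array), and 7 of 22 fibroblast and matrix genes were (median -0.15, against -0.01 on that svb9 array and -0.13 on the second fl26 array). The lowest of these 22 were Sparc and Col1a2, matrix genes of fibroblasts, with -1.24 and -0.97 on the old array, against -0.33 and -0.22 on the svb9 array, and the highest was Igfbp7 with 0.38. None of 6 skeletal muscle genes was above 0 (median -0.40), and 2 of 13 basal epithelial genes were (median -0.21). Krt5 and Krt14, the basal keratins, had -0.28 and -0.22 there and were not above background in red on the first old array.

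Luminal genes lay higher, with 11 of 15 above 0 and a median of 0.28. Prlr, the prolactin receptor, had 0.94, Tspan1 0.88, Krt18 0.75, Elf3 0.68 and the androgen-driven protease Tmprss2 0.43. The 4 below 0 were Cldn3 (-0.87), Agr2 (-0.40), Ceacam1 (-0.39) and Dpp4 (-0.23). Of 6 progenitor-like genes 5 were above 0 (median 0.66). Psca, a surface antigen of prostate progenitor-like cells, had 1.55 on the second old array, against 1.33 and 1.56 in fl26 and 0.55 and 0.15 in svb9, and was not above background in red on the first. Of 10 MHC genes 9 were above 0 (median 0.25), and of 8 macrophage genes 5 were (median 0.30). Of 13 senescence and cell cycle inhibitor genes 4 were above 0 (median -0.24), and Cdkn1a and Mki67 were not above background in red on either old array. The part that a shift in cell types had in the gene results above was not tested. Keeping outlier spots in the normalization left smooth muscle at 0 of 13 above 0 (median -0.35) but gave luminal genes 9 of 15 (median 0.12). The 42 ribosomal protein genes turned from 29 above 0 (median 0.22) to 13 above 0 (median -0.14) with that change, so no direction is given for them.

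**Figure D4:**
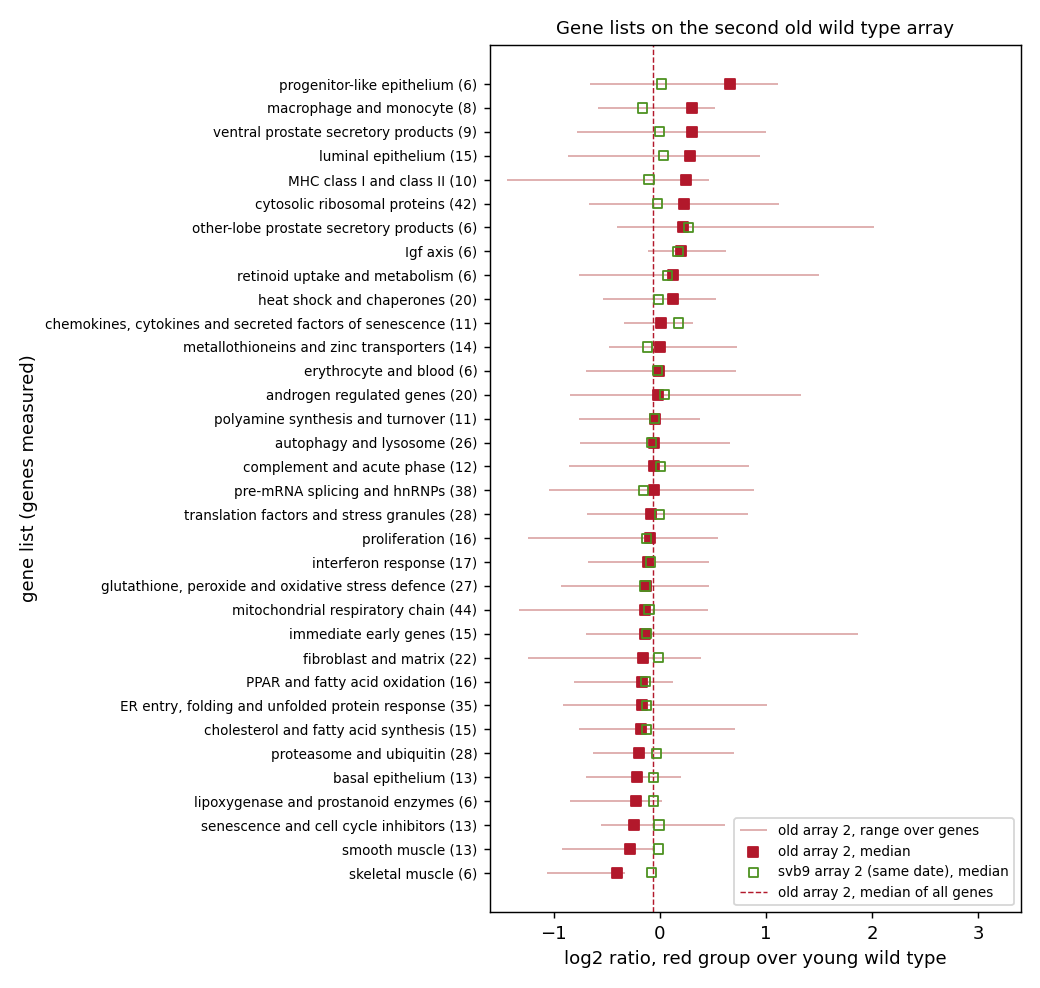
Median log2 ratio (horizontal axis) of each gene list with at least 6 genes measured (rows, number of genes in brackets) on the second old array over young wild type prostate (filled red squares, with lines for the range over genes) and on the svb9 array of the same date (open green squares), with a dashed line at the median of all 6375 genes. Of these lists progenitor-like epithelium is at the top with 0.66 and skeletal and smooth muscle are at the bottom with -0.40 and -0.28.

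Among 7279 genes that were above background in both channels on the second old array but not in red on the first, 59 were at least 2-fold higher and 26 at least 2-fold lower on that array. Entry needed red signal above background on that same array, which favours rises among dim probes. These counts are therefore not read as a direction of change. The highest were Psca, Fam107b (1.52) and Mcemp1 (1.52), and the lowest were the serine protease Prss23 (-1.44), the mitochondrial import factor Timm10b (-1.41) and Snhg18 (-1.36). Young green signals were 84.4, 191 and 176 units for these highest genes, against 634, 623 and 965 units for these lowest genes. Cks2, a cell cycle subunit, had -1.25, against -0.56 on the svb9 array of its date. Pja2 and Rock1 were as low on that svb9 array (-1.29 and -1.22 in old prostate, against -1.32 and -1.30 in svb9). Prss23 was as low on the second fl26 array (-1.46). These single-array values have no replicate check.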

How the data were processed

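Red and green spot intensities were deposited as Agilent Feature Extraction output, per the file headers. The deposited log10 ratios (red over green) were background-subtracted, detrended and dye-normalized by that software, per the file headers, and served as an alternative. The deposited value table repeats them, rounded, with 100% of values within 1% of the array's own and a median of 0 in each column. The flags for outlier, saturated and well above background spots are those of the deposited files. Intensities were background-corrected (normexp, offset 50) and loess-normalized within each array (limma 3.58.1, R 4.3.3), with control and outlier-marked spots at weight 0, and spots of a probe were averaged. The set was the probes well above background in both channels on both old arrays. Group means over 6 arrays were fitted with lmFit and eBayes, with Benjamini-Hochberg adjustment at 0.05 over the set. A gene is its probe of highest mean intensity. Symbols came from RefSeq, or from the name in the files as a current symbol or a synonym of 1 gene. They covered 31047 of 41174 probes. Named genes were up to 15 rises by fold and all falls among members that passed in both arrays' direction, a panel of prostate genes (1 of them is not reported here), and, added after seeing the data, every bright gene that passed. The members and the 40 gene lists were chosen with earlier results of these data known. The fit was tested on simulated data: of 1842 probes, 96% of 100 changed by 1 and 100% of 100 changed by 2 (log2) were recovered, with 5 unchanged probes called. The number of arrays limits the precision. Alternatives covered background, centring, filters, saturation, date, replicate block, variance trend and leaving out each array.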

Additional observations from a re-analysis of the deposited data

Results flagged for a closer look

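Stra6 differed between the old and the transgenic groups under the same contrast to young wild type prostate, by 1.79 on the log2 scale (limma, adjusted p = 0.0289). The old arrays gave 1.81 and 1.5, both above the 4 transgenic values of -0.66 to 0.32.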

How the results depend on the processing

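Calls depended on the background step and on the filter. The 193 calls of old against young, the 36 among bright probes, the 1 of old minus transgenic and the 32 probes at least 2-fold higher on both arrays became 66, 17, 1 and 25 with no background correction. The cause was not tested. With plain subtraction they were 78, 12, 0 and 148, with the deposited log ratios 94, 12, 0 and 147, with an offset of 16 they were 239, 40, 4 and 100, and with loess on bright spots 31, 10, 1 and 26. With outlier spots kept they were 83, 51, 0 and 70, of which 33 of the 83 and 7 of the 51 were also called before. With the wide filter (bright in either channel on both arrays of any group) or no filter limma called 0, 0 and 0 (3012 of 26149 and 4136 of 39454 probes had an unadjusted p under 0.05 for old against young). Testing the bright set alone, chosen after seeing the data, gave 10, 10, 1 and 10, 0 of them lower, with Stra6, Ddx42, Wdr81, Camsap2, Exosc1, Srrm3, Caln1, Cyp2f2 and Sf3b2 among the 10. One value per gene gave 18 genes at least 2-fold higher, and testing against a 1.5-fold change gave 0, 0 and 0 (82, 12 and 37 with an unadjusted p under 0.05). Old minus transgenic gave 34 calls with extraction date as a term and 3 with either variance trend. Leaving out 1 array at a time gave 0 to 185 calls of old against young, 0 to 36 among bright probes and 0 to 12 of old minus transgenic. Without the first old array they were 0, 0 and 0 (383, 160 and 162 unadjusted), and without the second 27, 14 and 12. The lone old array is then assumed to vary like the other groups. Without fl26 array 1 or svb9 array 2, Stra6 no longer passed against the transgenic arrays, and 9 probes passed without fl26 array 2.

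Same-numbered deviations correlated at 0.166 between old and fl26, -0.0652 between old and svb9 and 0.706 between fl26 and svb9, whose first arrays share an extraction date, so the numbers were not taken to pair the old arrays. A fit with the replicate block gave 395, 155 and 13 calls, of which 313 of the 395 and 79 of the 155 were higher.

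Median centring in place of loess moved the median bright probe to -3.54 and -1.48 on the old arrays and gave 1499, 912 and 1298 calls, 0 of them higher, and 1280 probes at least 2-fold lower. Under it these log2 ratios turned negative: 1810037I17Rik -2.50, Ang -0.13, Arhgef10l -0.15, Caln1 -1.70, Camsap2 -0.35, Cep170b -2.13, Cyb5b -2.24, Cyp2f2 -1.57, Ddx42 -0.98, Exosc1 -1.59, Fam177a -2.08, Foxa1 -1.97, Ftl1 -2.23, G3bp1 -1.49, Grpel1 -1.97, Igf2r -1.96, Krt7 -1.94, Lasp1 -2.54, Lrrc26 -2.23, Odc1 -2.08, Pik3c2g -0.27, Plxna1 -0.24, Ptprz1 -0.82, Rcc2 -1.78, Romo1 -2.62, Sbp -0.55 and -0.50, Sf3b2 -1.84, Smarca4 -1.99, Snrnp70 -1.79, Snrpf -1.99, Spink1 -1.11, Srrm3 -1.52, Stra6 -1.18, Txnip -2.14, Wdr81 -1.81, Zfp932 -2.15.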

Other observations

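Further genes were at least 2-fold higher on the second old array and had no usable value on the first because their spots were marked as outliers. Fgl1, a secreted fibrinogen-like protein, had a log2 ratio of 2.02 on the second old array, against 0.73 on the svb9 array of the same date. Nupr1, a stress-induced chromatin protein, had 1.33, against 0.15 in svb9. One Junb probe gave 1.87 on the second old array, against 1.05 in svb9, while the other, bright and measured on both old arrays, gave 0.18 and 0.05 (limma adjusted p = 0.698). Hspa5, the main chaperone of the endoplasmic reticulum, had 1.01, against 0.57 in svb9. Hpgd, which inactivates prostaglandins, had -0.85, against 0.24 in svb9, and was not above background in red on the first old array. Each is a value of 1 array with no replicate check.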
